A study of Mus musculus with 6 samples.

Results

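The CMTM genes (CKLF-like MARVEL transmembrane domain containing) encode small proteins that pass through the membrane several times, and 8 of them were followed here in P21 mouse testes: Cmtm2a, Cmtm2b, Cmtm3, Cmtm4, Cmtm5, Cmtm6, Cmtm7 and Cmtm8. The members were taken as every probe set annotated to exactly 1 of these names, which gave 12 probe sets for 8 of the 18193 genes that the array names alone. All 8 genes and 10 of the probe sets passed the filter for comparison, a mean signal over the 6 arrays at or above 48.0, the 40th percentile of the array, and 1 probe set each of Cmtm5 and Cmtm7 lay under it. The family was chosen by its values on these same arrays, on which the large difference at Cmtm2b was already known. Every Fn against Wt value of a member is therefore a description, and no test of a member is given. RNA from whole testes was hybridised to 6 single-colour arrays, 3 from mice with wild-type Dazap1 (Wt) and 3 from mice homozygous for the Dazap1 Fn allele. The mice were on a mixed C57BL/6 and 129 background and were taken at postnatal day 21, and the arrays are numbered 1 to 3 within each genotype.

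DAZAP1 is an RNA-binding protein abundant in germ cells. The Fn allele is floxed and still carries neo. It is not a null allele, since by the study's own introduction it yields an altered protein, DAZAP1-Fn, with extra residues separating its RNA recognition motifs. Fn homozygotes seldom outlive the newborn period, and those that do grow poorly and do not complete spermatogenesis. The arrays therefore describe surviving animals, in which all cells carry the allele. Signals were MAS5 intensities that the authors had scaled to a common trimmed mean, which lay between 498.4 and 498.6 on the 6 arrays. Spearman correlations were 0.951 to 0.961 between arrays of a genotype and 0.897 to 0.914 between genotypes. Dazap1 itself read 4323, 4462 and 5046 in Wt and 2538, 2735 and 2819.8 in Fn, a log2 change of -0.77 with an adjusted p of 6.7e-05 (limma). This is a measure of transcript and not of the altered protein.

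The MARVEL domain is a bundle of membrane-spanning helices found in proteins that organise membranes and traffic other proteins to them. CMTM2A and CMTM2B are testis proteins of the sperm membrane, and both are needed together for ADAM3, an adhesion protein of the sperm surface, to reach its place and for male fertility. The other members are found in many tissues: CMTM6 and CMTM4 keep the immune checkpoint ligand PD-L1 at the cell surface, CMTM7 acts with the endosomal GTPase RAB5, CMTM8 promotes internalisation of the EGF receptor, CMTM3 acts on cadherins in vessel endothelium, and CMTM5 is abundant in brain. CKLF, the chemokine-like factor after which the family is named, and CMTM1 belong to the same group of genes but are not members of the set followed here.

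The genes lie in clusters. In the RefSeq annotation of GRCm38.p6, a run of 6 genes that includes Cklf and Cmtm1 fills 144.9 kb of chromosome 8 in the order Cklf (chr8:104250861-104266010), Cmtm2a (chr8:104281042-104293181), Cmtm1 (chr8:104293542-104310145), Cmtm2b (chr8:104322206-104330764), Cmtm3 (chr8:104339383-104347672) and Cmtm4 (chr8:104348191-104395807). Cmtm6 (chr9:114731157-114749359), Cmtm7 (chr9:114756836-114781993) and Cmtm8 (chr9:114789343-114844152) share 113.0 kb of chromosome 9. Cmtm5 (chr14:54936176-54943045) stands apart from the other members on chromosome 14. The gap from Cmtm2b to Cmtm3 is 8.6 kb and that from Cmtm3 to Cmtm4 is 0.5 kb.

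The promoters of Cmtm2a and Cmtm2b are printed because these genes had the largest differences in the family and because their start regions are nearly the same sequence. Each run holds 250 bases before and 50 bases after the RefSeq start, 5′ to 3′ on the gene's own strand (GRCm38.p6), at chr8:104293132-104293431 on the minus strand for Cmtm2a and chr8:104321977-104322276 on the plus strand for Cmtm2b. The start used for Cmtm2b lies inside the span given above for that gene, and not at its left end. Capitals mark the bases that differ between the pair or are unmatched at an end or gap.
Cmtm2a: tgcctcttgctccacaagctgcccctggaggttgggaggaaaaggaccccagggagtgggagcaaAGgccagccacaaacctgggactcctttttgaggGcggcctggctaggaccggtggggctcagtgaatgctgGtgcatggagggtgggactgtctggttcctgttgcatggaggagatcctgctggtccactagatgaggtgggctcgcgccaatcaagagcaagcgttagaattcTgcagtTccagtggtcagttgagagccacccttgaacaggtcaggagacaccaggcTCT
Cmtm2b: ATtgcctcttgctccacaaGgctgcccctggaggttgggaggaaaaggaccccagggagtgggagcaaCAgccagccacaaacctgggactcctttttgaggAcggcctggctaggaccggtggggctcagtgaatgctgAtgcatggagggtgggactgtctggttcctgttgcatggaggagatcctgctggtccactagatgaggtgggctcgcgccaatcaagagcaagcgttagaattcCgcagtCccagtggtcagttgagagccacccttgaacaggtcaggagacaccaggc
In a global alignment 291 of 297 aligned bases were identical (98.0%), with 6 substitutions and 6 gap bases. The other 27 pairs of member promoters reached 44.1% to 61.3% identity in the same alignment, and Cmtm2a against Cmtm3 reached 55.2%. These windows are mostly upstream of the transcripts, and no transcript or probe sequence was compared.

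The promoters of all 8 members were searched on both strands for letters of the CRE (TGACGTCA), of its shorter site (TGACG, which also lies inside the CRE), of the MYB core (AACNG) and of the TATA box (TATAAA). The CRE was in 0 of 8 members, against 1.8% of 32851 RefSeq promoters of the same length, and the shorter site was matched 2 times in Cmtm6 and in no other member, against 20.8% of promoters. The MYB core was matched 4 times in Cmtm2a and 4 times in Cmtm2b, 3 times in Cmtm7, 2 times in Cmtm6 and 1 time each in Cmtm3 and Cmtm8, and it was in neither Cmtm4 nor Cmtm5. These letters are common, since 80.3% of promoters hold the MYB core. TATAAA was in 0 of 8 members, against 13.6% of promoters. The matches describe letters only, and a window without a match says nothing of the factor.

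The sperm pair carried the largest differences of the family. Cmtm2b read 13588, 13227 and 13339 on the Wt arrays and 245, 458 and 266 on the Fn arrays. The Wt arrays lay close together and every Fn array lay far below them. The mean went from 13385 ± 185 to 323 ± 117 (SD, n = 3), a log2 change of -5.43 (SE 0.20), or 43.1-fold lower. Of the 13447 genes compared, 70 had a more negative log2 change than Cmtm2b. In whole testis, fewer cells of a type and less RNA per cell cannot be told apart, here or for any gene below. The paper also raises the concern that, with mutant growth slowed, Fn spermatocytes at day 21 could lag behind Wt ones. For that reason its exon arrays set Fn testes of adults against Wt testes of day 21. The arrays used here are matched by age, and whether they are matched by stage was not tested.

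Cmtm2a was read by a pair of probe sets. The brighter one gave 6564, 8123 and 7169 in Wt and 267, 568 and 147 in Fn, a mean of 7285 ± 786 against 327 ± 217 (SD, n = 3). Its log2 change was -4.69 (SE 0.38), or 25.8-fold lower, and 134 genes had a more negative change. The other gave 5607, 6295 and 6594 in Wt and 143, 312 and 150.3 in Fn. Both probe sets placed all Fn arrays far below all Wt arrays, and the second had a log2 change of -5.03 (SE 0.26), or 32.6-fold lower. A further probe set names Cmtm1 and Cmtm2a together and was used for neither: it gave 11019, 10359 and 11497.5 in Wt and 656, 1012 and 619.9 in Fn, 14.7-fold lower. Both Cmtm2a probe sets are of the _x_at type, whose probes may match other transcripts, while that of Cmtm2b is not, so how far each reads its own gene was not tested.

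Fn array 2 gave the highest Fn signal for all 3 probe sets of the pair. The same array was highest among the Fn arrays for 168 of the 249 genes (67.5%) that were over 16-fold lower in Fn, a group that holds both Cmtm2a and Cmtm2b. These 249 genes are 1.85% of those compared, and this threshold was chosen after the values of the pair were seen. Over 16 alternative settings, with each array left out in turn among them, the log2 change lay between -5.20 and -4.22 for Cmtm2a and between -5.71 and -5.26 for Cmtm2b.

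**Figure D1:**
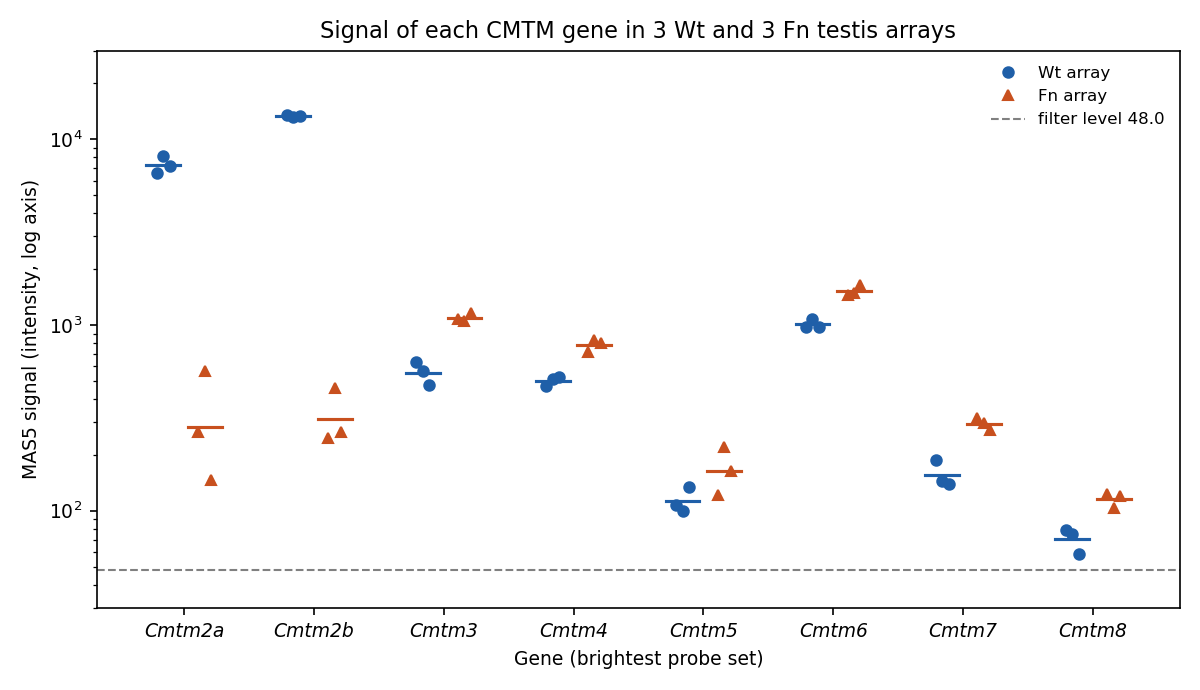
MAS5 signal (log axis) of the brightest probe set of each CMTM gene, with 3 Wt arrays (circles) and 3 Fn arrays (triangles) and lines at the geometric means. The Fn arrays lie far below the Wt arrays at Cmtm2a and Cmtm2b, above them at Cmtm3, Cmtm4, Cmtm6, Cmtm7 and Cmtm8, and overlap them at Cmtm5. A dashed line marks the filter level, 48.0.

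The remaining 6 members had higher mean signals in Fn, and all by less than 2-fold. Cmtm3 read 633, 565 and 474 in Wt and 1076, 1052 and 1157.5 in Fn, so every Fn array lay above every Wt array. Its mean went from 557 ± 79.9 to 1095 ± 55.4 (SD, n = 3), a log2 change of 0.98 (SE 0.13), or 1.98-fold, and 1689 genes had a larger positive change. Its neighbour Cmtm4 read 471, 514.5 and 522 in Wt and 717, 826 and 796 in Fn. These groups did not overlap either, with a log2 change of 0.63 (SE 0.12), or 1.55-fold. Cmtm3 is the gene next to Cmtm2b, 8.6 kb away, so the differences changed sign between neighbours.

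Cmtm6 was read by a pair of probe sets with like differences. The brighter one gave 971.5, 1073 and 981 in Wt and 1455, 1491.5 and 1637 in Fn, a log2 change of 0.60 (SE 0.10), or 1.51-fold. The other gave 1042.5, 859 and 853 in Wt and 1659, 1579.8 and 1446 in Fn, a log2 change of 0.77 (SE 0.12), or 1.71-fold. All Fn arrays lay above all Wt arrays for both. Cmtm7 read 186.5, 144 and 139 in Wt and 315, 298 and 273 in Fn, with no overlap and a log2 change of 0.93 (SE 0.17), or 1.90-fold. A dimmer probe set of Cmtm7 read 27.3 to 35.8 in Wt and 29.6 to 45.2 in Fn, under the filter level and with overlapping groups.

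Cmtm8, the third gene of the chromosome 9 cluster, had signals near the filter level, of 78.5, 75 and 58.8 in Wt and 123, 103 and 120.0 in Fn. The groups did not overlap, and the log2 change was 0.71 (SE 0.24), or 1.64-fold. Cmtm5, the gene best known from brain, read 108, 100.2 and 134 in Wt and 121, 219.7 and 164 in Fn. Here the lowest Fn array lay below the highest Wt array, and the log2 change of 0.53 (SE 0.25) comes from groups that overlap. A second probe set of Cmtm5 stayed at 4.4 to 10.0 on all 6 arrays and was given no fold.

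These higher signals are to be read against the array as a whole. The median log2 change over all 13447 genes was 0.32 with the deposited scaling, and it fell to 0.17 when arrays were centred on their medians. Relative to that median, and over 4 scalings, the change was 0.64 to 0.66 for Cmtm3, 0.54 to 0.60 for Cmtm7, 0.29 to 0.39 for Cmtm8, 0.27 to 0.31 for Cmtm4, 0.28 to 0.31 for Cmtm6 and 0.13 to 0.21 for Cmtm5. The pair of sperm genes stood at -5.01 to -4.92 for Cmtm2a and -5.75 for Cmtm2b on the same footing. Centring shifts every gene of an array alike, so it cannot alter a change relative to the median. Only quantile normalization, which gives all arrays the same distribution of signals, could move these relative values. The direction of all 8 members was the same under the 4 scalings.

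Among all genes 24.7% fell and 44.9% rose at an adjusted p under 0.05 (limma), which is the background for the gene lists that follow, and no such call is given for the members. Of the genes called, 64.5% were higher with the deposited scaling and 54.7% after centring on the median. The groups did not overlap, with Fn below, for 2 members against 26.6% of all genes, and with Fn above for 5 members against 48.9%. Nothing is read from these counts, because the family was chosen from this contrast. The median log2 change of the 8 members was 0.62.

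**Figure D2:**
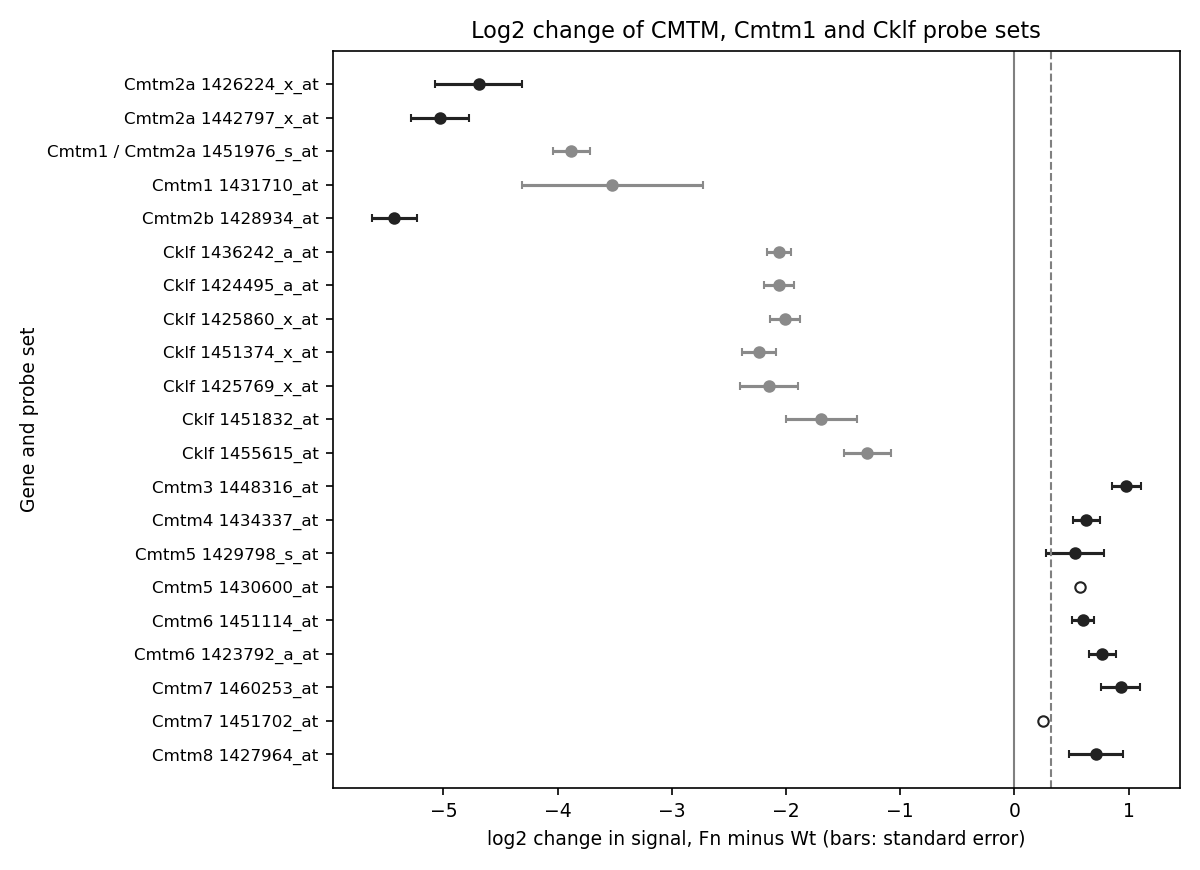
Fn minus Wt log2 signal for every CMTM probe set (black) and for the Cmtm1, shared and Cklf probe sets (grey), with 3 arrays a group. Bars are 1 standard error from the limma fit, which moderates the spread over all probe sets tested. Open circles are under the filter level and carry no error, and vertical lines stand at 0 (solid) and at the all-gene median, 0.32 (dashed). Cmtm2a, Cmtm2b, Cmtm1 and Cklf lie left of 0, and Cmtm3 to Cmtm8 lie right of it.

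Cklf, the founder of the family, was lower on all 7 of its probe sets, with log2 changes of -2.24 to -1.29. Some Cklf probe sets are of the _x_at type, whose probes may match other transcripts. On the brightest Cklf probe set, which is not of that type, the Wt mean was 9305 ± 497 and the Fn mean 2239 ± 316 (SD, n = 3). The log2 change there was -2.06 with an adjusted p of 4.3e-07 (limma). Cmtm1, which lies 0.4 kb from Cmtm2a, read 274, 281 and 474 in Wt and 5.9, 66.8 and 61.6 in Fn. All Fn arrays lay below all Wt arrays, and Fn array 1 was the 1 array under the filter level. The Fn mean, 44.8, was also under that level, so the fall in Cmtm1 can be given only as at least 6.91-fold. Its log2 change was -3.52 (adjusted p = 0.0035, limma), and it was -2.37 without Fn array 1 and -4.12 without Fn array 2. The first 4 genes of the chromosome 8 cluster were thus lower in Fn and the last 2, Cmtm3 and Cmtm4, were higher.

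Genes around the clusters were taken within 200 kb of any member, which gave 50 genes, 28 of them compared. Of these, 3 fell, 8 rose and 17 did not pass, against 24.7% lower and 44.9% higher among all genes, and their median log2 change was 0.18 against 0.32. Those that fell were Cklf, Cmtm1 and Terb1, a telomere-tethering protein of meiosis, which lies 50.9 kb beyond Cmtm4 and was 1.63-fold lower (adjusted p = 0.0019, limma). Gpd1l, a glycerol-3-phosphate dehydrogenase-like enzyme 55.2 kb from Cmtm8, was 1.99-fold higher (adjusted p = 0.00021, limma). Bcl2l2, an inhibitor of cell death 45.3 kb from Cmtm5, was 1.95-fold higher (adjusted p = 0.00029, limma), and Efs, a scaffold protein 9.4 kb from Cmtm5, was 1.56-fold higher (adjusted p = 0.0054, limma). Next to the chromosome 8 cluster, Tk2 on the Cklf side and Dync1li2 on the Cmtm4 side, named for their place, had log2 changes of -0.09 and 0.02 and did not pass. After centring on the median, 4 of the 28 genes rose.

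**Figure D3:**
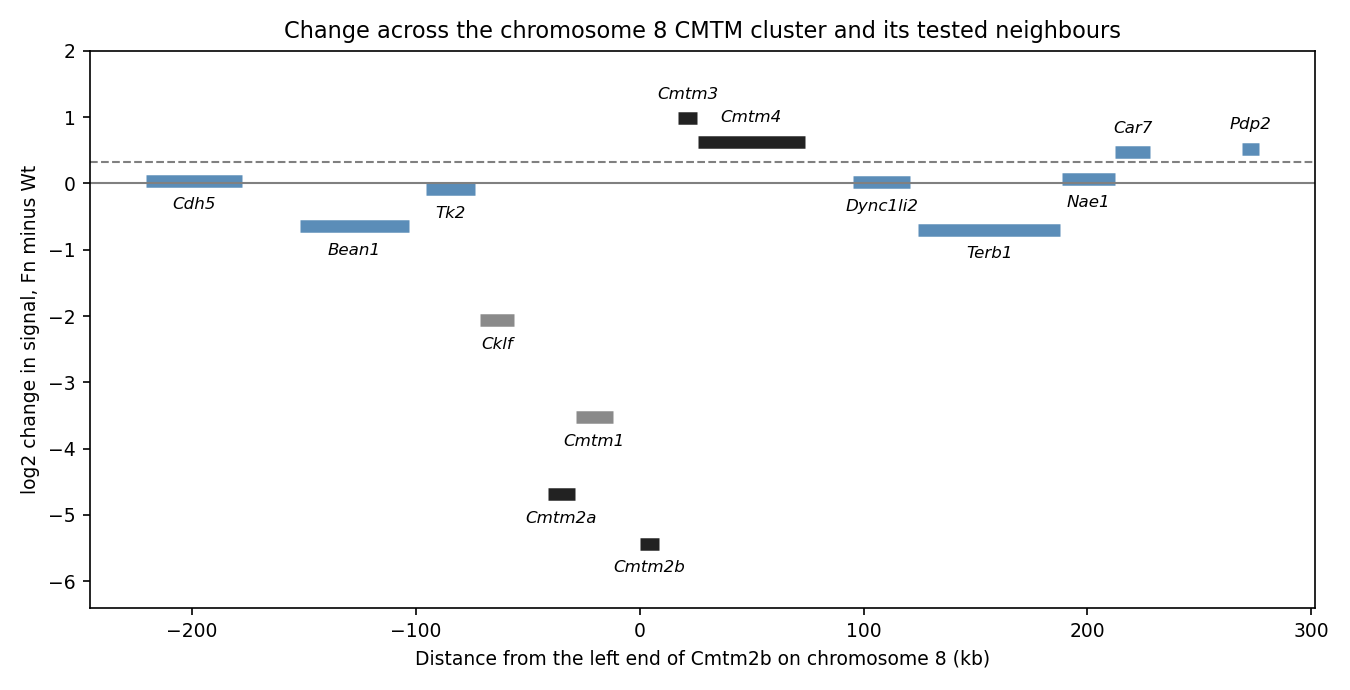
Fn minus Wt log2 signal for the genes of the chromosome 8 cluster and for their compared neighbours, each drawn as a bar over its span in kb from the left end of Cmtm2b. Members are black, Cmtm1 and Cklf grey, other genes blue, and dashes mark the all-gene median, 0.32. Cklf, Cmtm2a, Cmtm1 and Cmtm2b lie far below 0, while Cmtm3 and Cmtm4 on their right lie above it.

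Since CMTM2A and CMTM2B serve ADAM3, genes known to act on ADAM3 or with it were counted. Of 16 listed genes 13 were compared, and 6 fell, 3 rose and 4 did not pass, with a median log2 change of -0.15. Among all genes 24.7% fell and 44.9% rose, with a median of 0.32. Adam3 fell from 5544 ± 972 to 77.2 ± 75.2 (SD, n = 3), a log2 change of -6.71 (adjusted p = 2.1e-05, limma), which was -7.52 without Fn array 2 and -5.88 without Fn array 3. The fertilin subunit genes Adam1b and Adam2 had log2 changes of -4.60 (adjusted p = 1.2e-07) and -2.45 (adjusted p = 1.7e-06), both by limma, and Adam1b stood at -2.29 when its probe sets were averaged. Clgn, an endoplasmic reticulum chaperone of germ cells, had a log2 change of -1.97 (adjusted p = 7.1e-06, limma), and Lypd4 one of -3.08 (adjusted p = 5.6e-07, limma). Rnase10 was at least 3.37-fold lower (adjusted p = 0.00066, limma).

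The members of that list that rose did so by small steps. Pgap1, a GPI-anchor remodelling enzyme, had a log2 change of 0.73 (adjusted p = 0.012, limma), Tpst2, a tyrosine sulphotransferase, 0.38 (adjusted p = 0.034, limma) and the GPI-anchored Tex101 0.27 (adjusted p = 0.0098, limma). After centring the arrays on the median or on the 75th percentile, Pgap1 was the 1 gene of the list that rose, and without Fn array 1, where Pgap1 had an adjusted p of 0.062 (limma), the count was also 1. Tpst2 passed in 8 of 16 alternatives. Without Fn array 2 Ly6k fell (-0.29, adjusted p = 0.018, limma). With all arrays Ace (0.10), Adam1a (0.61), Calr3 (0.58) and Ly6k (-0.15) did not pass, although a dimmer probe set of Ly6k was at least 3.62-fold lower (adjusted p = 0.0001, limma). Pdilt was under the filter level over all arrays and its values, without a test, were at least 2.34-fold and 3.37-fold lower in Fn on its 2 probe sets, Prss37 was under it in both groups, and Pmis2 was not analysed here.

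Genes tied to the other members were counted in the same way. Of 8 genes on the array whose products act with CMTM proteins, 7 were compared, 0 fell and 3 rose by limma, and the count that fell at an unadjusted p under 0.05 was also 0. The share that rose, 3 of 7, is near the 44.9% of all genes. Rab5a, the endosomal GTPase that CMTM7 acts with, had a log2 change of 0.90 (adjusted p = 7e-05, limma), Rab5c 0.42 (adjusted p = 0.02, limma) and Stub1, a ubiquitin ligase of PD-L1, 0.25 (adjusted p = 0.021, limma). Rab5b (0.02), Cd274, which encodes PD-L1 (0.35), Cdh5, which encodes VE-cadherin (0.04) and the brightest probe set of Egfr (0.01) did not pass, while dimmer probe sets of Egfr reached 1.19 and 0.88 with adjusted p of 0.00072 and 0.0062 (limma). Without Wt array 3, or after centring on the median or on the 75th percentile, Rab5a was the 1 gene of these 7 that rose. Rab5c did not pass without Fn array 1 (adjusted p = 0.091, limma), nor Stub1 without Fn array 3 (adjusted p = 0.071, limma). Ccr4, a receptor of CKLF, was under the filter level.

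Beyond the CMTM genes the MARVEL domain occurs in tight junction, myelin and vesicle proteins, and 16 of 21 listed genes, Cklf and Cmtm1 included, were compared. Of these, 9 rose, 3 fell and 4 did not pass, and the list had a median of 0.66 on the log2 scale, against 44.9% higher, 24.7% lower and a median of 0.32 among all genes. With the arrays paired by number 8 rose, since Syp lost its call. Syp kept its call in only 4 of 14 alternatives, with an adjusted p of up to 0.16 (limma). With probe sets averaged, 6 of 13 compared rose, and Marveld1 and Syngr1 lost their calls. Syngr4, a synaptogyrin, was the third that fell, with a log2 change of -1.89 (adjusted p = 9.7e-07, limma). Plp2 (1.05, adjusted p = 4.7e-05), Ocln, the tight junction protein occludin (1.08, adjusted p = 0.00023), Syngr2 (0.91, adjusted p = 6.1e-05) and Sypl (0.57, adjusted p = 0.0002) rose by limma. A second probe set of Sypl, nearly as bright, did not pass (0.07, adjusted p = 0.5, limma), while the dimmer compared probe sets of Sypl rose. Mal2, Myadml2, Marveld3, Sypl2 and Synpr were under the filter level.

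The genes whose pattern over the 6 arrays was nearest to Cmtm2b, by the root mean square difference of log2 signals centred on each gene's mean, were Adam32 (0.151), Ccdc38 (0.169), Tekt3 (0.176), Nlrp14 (0.188) and Pdzd9 (0.209). Those nearest to Cmtm2a were Pabpc2 (0.194), Stpg4 (0.196), D6Ertd474e (0.228), Ppp3r2 (0.248) and Slc2a5 (0.25). Cmtm2a and Cmtm2b were 0.528 apart, so that Cmtm2a ranked 69th for Cmtm2b and Cmtm2b ranked 87th for Cmtm2a. This likeness holds the genotype difference itself and is a description of 6 arrays.

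Marker lists of the cell types of the testis were counted against the 24.7% of all genes that fell and the 44.9% that rose. Of pachytene spermatocyte markers 8 of 9 compared fell, with a summed signal of 94770 to 102208 in Wt and 31142 to 39934 in Fn, and of round spermatid markers 7 of 8 fell (19673 to 22884 against 2219 to 2839), while Tnp1, Tnp2 and Tssk2 were under the filter level. Both sums move with Cmtm2a, Cmtm2b, Cmtm1 and Cklf. The paper describes P21 testes of both genotypes as mostly at the pachytene stage, with haploid spermatids rare or absent. The possible lag of Fn spermatocytes, given above, was not tested with these lists. The largest Wt means of the round spermatid list were those of Dkkl1 (9893), Actl7b (4364) and Acr (3789). Prm1 (181 ± 177 in Wt, SD, n = 3) and Prm2 (116 ± 101) overlapped between genotypes, and 6 of the 8 compared did not. Of Sertoli cell markers 9 of 10 rose (26629 to 30801 against 43853 to 45114), as did 4 of 6 peritubular markers (9369 to 11254 against 15888 to 16967) and 3 of 7 endothelial markers (1510 to 1717 against 2664 to 2878). Of macrophage markers 5 of 8 rose (4607 to 5725 against 5947 to 8438), and of Leydig cell markers 3 of 5 rose, with sums that overlapped (6260 to 10305 against 6345 to 12235). Apart from the Sertoli list, these shares are near that of all genes or rest on few markers. The Sertoli, peritubular, endothelial and macrophage sums, but not the Leydig sums, were higher in Fn without overlap, as were Cmtm3, Cmtm4, Cmtm6, Cmtm7 and Cmtm8. Among macrophage markers 1, Aif1, fell. The part of any of these cells in the members' values was not tested. The labels call the arrays of a genotype biological replicates without saying how many animals each holds. The p-values given set the difference between genotypes against the spread between these samples, which limma moderates over all probe sets tested. The standard errors (SE) are moderated in the same way. The number of samples limits the precision.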

How the data were processed

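RNA of 3 Wt and 3 Fn whole-testis samples was hybridised, 1 sample each, to Affymetrix Mouse Genome 430 2.0 arrays. The authors deposited MAS5 signal intensities on a linear scale, scaled to a common trimmed mean per array. The algorithm's name comes from the notes of the submitters, and its version was not stated there.

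From the deposited intensities, log2 signal was taken (1 value of 0 was set to 0.1). Of all 45037 probe sets, the 27022 at or above the 40th percentile of mean log2 signal, 48.0, were tested with limma 3.58.1 in R 4.3.3 (lmFit, eBayes with intensity trend). Benjamini-Hochberg adjustment was over all those tested, whatever number of genes they name. Gene values were then taken from probe sets naming 1 gene (34945 of 45037, with 932 naming several and 9160 none). The brightest probe set stood for its gene. A mean under 48.0 was set to 48.0 in a bound. The samples carry numbers 1 to 3 in both genotypes. Deviations of same-numbered arrays correlated at 0.131, 0.123 and 0.159, and of other pairs at -0.15 to 0.035. Deviations from a group mean sum to 0, so positive values in some pairs require negative ones in others. The numbers were taken as a possible pairing, which comes from these values and not from a label. The standard errors and p-values given are from a fit with no block, with the block as an alternative. No batch is named in the labels.

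The members, the ADAM3, MARVEL, partner and marker lists and the tests were chosen with earlier results of these data known. Named genes were every member and every ADAM3 and partner gene (1 is not reported here), the 6 neighbours and 6 MARVEL genes of smallest p, and the 5 genes nearest to Cmtm2a and to Cmtm2b. The markers listed for lymphocytes (1 compared) and epididymal epithelium (2 compared) did not pass. Promoters are RefSeq's (GRCm38.p6), aligned with Biopython 1.88. For Cmtm5, the first of its listed starts was used. The scripts were tested on simulated data. Alternatives were other scalings, filters, offsets, weights, probe set means and each array left out.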

Additional observations from a re-analysis of the deposited data

How the results depend on the processing

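Over 16 alternatives, 0 of 125 single-gene values, all of them of members, reversed, and 117 moved by less than the spread between replicates. Genes outside the family that passed also kept their sign. Some that did not pass changed sign with the setting. The log2 change lay between -0.08 and 0.21 for Ace and between -0.11 and 1.01 for Calr3. It lay between -0.12 and 0.13 for Cdh5, -0.14 and 0.16 for Rab5b, and -0.15 and 0.74 for Egfr. The counts that moved were those of small rises: the ADAM3 genes that rose went from 3 to 1 after centring on the median or on the 75th percentile, neighbours from 8 to 4 after centring on the median, and partner genes from 3 to 1 after either centring. Leaving out 1 array at a time gave 1 to 3 ADAM3 genes and 1 to 3 partner genes that rose. With the replicate block, 3410 genes were lower and 6165 higher. With this block no count of calls moved by over 1.5 times, the MARVEL genes that rose going from 9 to 8. A block, a filter or the intensity trend cannot alter the log2 change of a probe set in this balanced design. Under these settings the -4.69 of Cmtm2a and the -5.43 of Cmtm2b were therefore fixed in advance. The same holds for the other members, and such values are among the 125. Signal over background limits Cmtm5 and Cmtm8, neither of which was compared under the filter at the 60th percentile. The causes were not tested.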

Other observations

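Sypl2, a synaptophysin-like MARVEL protein, was under the filter level and so was not compared. On 1 of its 3 probe sets the signal was 2.4, 2.4 and 3.6 in Wt and 41.3, 42.2 and 40.7 in Fn. The groups did not overlap, and both lay under 48.0, so no fold is given. This probe set was chosen after its values were seen, and the other probe sets of Sypl2 overlapped between genotypes.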
